A study of Mus musculus with 24 samples.

Results

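Rhythms with a period of 12 h, that is with a pair of peaks a day, were examined in liver RNA-seq data of all 24 libraries of the series, 12 from wild-type (WT) mice and 12 from ΔRRE mice. The 12-h wave was fitted beside the 24-h wave with genotype as a term, so that libraries taken 12 h apart were read together: CT2 with CT14, CT6 with CT18 and CT10 with CT22, with 8 libraries in each pair. All animals were male C57BL/6 mice, and CT (circadian time) counts the hours of the internal day. By the study's methods for tissue RNA, collection took place in constant darkness, and CT was a projected time. The ΔRRE mice carry a homozygous CRISPR-Cas9 deletion of both RREs (response elements of the ROR and REV-ERB nuclear receptors) in the 5'-UTR region of *Bmal1*, present in every cell. Per the study's methods 1 mutant line was used unless stated otherwise, so the ΔRRE libraries stand for that line. Livers were taken every 4 h from CT2 to CT22, with 2 libraries for each genotype and time, and the genotypes share the strain, sex, tissue and times. The age of the mice is not given in the labels, and the study's methods for tissue RNA give 8 to 24 weeks. Of 54733 genes in the files, the 11244 with a mean of at least 1 FPKM (fragments mapped to a gene, scaled by its transcript length and by the size of the library) were tested.

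In mouse liver, a part of the transcriptome is known to peak in the morning and again in the evening. Genes of protein folding in the endoplasmic reticulum (ER), of secretion and of lipid metabolism have been described among these 12-h rhythms. The ER chaperones are induced by the unfolded protein response, the cytosolic chaperones by the heat shock factor HSF1, and the genes of fatty acid synthesis by feeding through SREBP1 and ChREBP. The circadian clock itself is built on a 24-h loop, in which CLOCK and BMAL1 act on E-boxes, DBP, TEF and HLF on D-boxes, and the RORs and REV-ERBs on RREs.

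The targeted gene followed its labels: *Bmal1* (*Arntl* in the files) ranged from 0.0919 to 13.2 FPKM over the WT time points and from 2.1 to 4.21 FPKM over the ΔRRE time points. The libraries summed to between 554170 and 624746 FPKM and held between 18869 and 20263 genes above 0. Read counts were not used here, so the counting error of single values is unknown. The medians of the 8 libraries of the CT2 and CT14, CT6 and CT18, and CT10 and CT22 pairs were 578208, 584656 and 578399 FPKM in the sum, and 13.8%, 14.2% and 13.7% in the share of mitochondrially encoded genes, so neither separated the pairs.

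The 12-h wave passed an adjusted p under 0.05 for 343 of the 11244 genes, 3.05% of those tested, whereas the 24-h wave passed for 3769 (33.5%). The amplitude, the height of the wave above its mean on the log2 scale, had a median of 0.328 among these 343 genes and ranged from 0.122 to 1.56. The median corresponds to a fitted peak-to-trough ratio of 1.58. Over all genes tested the median amplitude was 0.114, since a fitted amplitude is never below 0. At an unadjusted p under 0.05 there were 2153 genes (19.1%). An 8-h sine term added to the fit passed for 0 genes in limma's test after adjustment and for 438 (3.9%) at an unadjusted p under 0.05. The 12-h test joined a cosine and a sine, so these counts are not alike. The 8-h cosine is 0 at every time sampled, so part of an 8-h wave cannot be seen here.

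Most of the 343 genes had a 24-h wave as well: 261 of them (76.1%) also passed for 24 h, and the 24-h amplitude was the larger of both in 179. The other 164 (47.8%) had the larger amplitude at 12 h, which 29.1% of all genes tested had, though the rule for the 12-h wave favours this. A gene was called two-peaked if the 12-h wave passed, the 12-h amplitude exceeded the 24-h amplitude and the 6 time-point means had 2 local maxima in WT and in ΔRRE. By this rule 153 genes (1.36% of those tested) were two-peaked, whereas 2380 genes (21.2%) met the criteria of shape whatever their p. Among the 343 genes, 237 (69.1%) had 2 maxima in both genotypes, against 5038 (44.8%) of all genes tested. The weakest gene inside the threshold was *Cacybp*, with an adjusted p of 0.0499 and an amplitude of 0.24, and the closest outside was *Siah2*, with 0.0504 and 0.26. In all, 78 genes had an adjusted p between 0.05 and 0.06.

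A single day was sampled at 3 points per 12-h cycle, so a 12-h wave cannot be told apart from a daily wave that is not a sinusoid, such as a sharp evening peak. The count also depended on single libraries and time points: it ranged from 155 to 455 when 1 library was left out, with 192 without WT CT2 replicate 2, 221 without WT CT14 replicate 1, 188 without ΔRRE CT2 replicate 2, 192 without ΔRRE CT10 replicate 1, 155 without ΔRRE CT22 replicate 1 and 210 without ΔRRE CT22 replicate 2, and from 3 (without CT22) to 112 (without CT18) when a time point was left out, in which case 5 time points carried 5 terms of the wave.

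The largest 12-h amplitude among two-peaked genes of the naming rule was that of *Fasn* (ENSMUSG00000025153, mm10 chr11:120805846-120824547), the fatty acid synthase that makes palmitate. In FPKM, with replicate 1 before replicate 2, it measured 49.7 and 76.6 in WT and 33.0 and 60.3 in ΔRRE at CT2 and 86.9 and 112 in WT and 40.3 and 92.8 in ΔRRE at CT14. The corresponding libraries held 71.5 and 26.4 in WT and 17.2 and 36.6 in ΔRRE at CT6 and 66.1 and 94.0 in WT and 122 and 93.2 in ΔRRE at CT18. At CT10 they held 29.2 and 14.9 in WT and 12.2 and 10.4 in ΔRRE, and at CT22 48.2 and 42.1 in WT and 21.8 and 38.6 in ΔRRE. Thus *Fasn* was lowest at CT10 in both genotypes, fell less far at CT22 and was highest at CT14 and CT18, with overlap between the pairs. The 12-h wave had an amplitude of 0.89 ± 0.14 (SE) on the log2 scale, a fitted peak-to-trough ratio of 3.45 and peaks at CT3.73 and CT15.7 (adjusted p = 0.00665). The 24-h amplitude was 0.81, close to that of the 12-h wave.

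*Tfrc* (chr16:32608920-32632794), the transferrin receptor that takes up iron, was the gene with the smallest p in the ΔRRE libraries alone. Its FPKM were 9.88 and 8.32 in WT and 9.31 and 9.21 in ΔRRE at CT2 and 18.5 and 9.36 in WT and 17.5 and 19.0 in ΔRRE at CT14. They were 12.4 and 5.61 in WT and 9.46 and 10.9 in ΔRRE at CT6 and 11.4 and 20.3 in WT and 23.4 and 23.6 in ΔRRE at CT18. They were 5.08 and 7.92 in WT and 5.41 and 4.70 in ΔRRE at CT10 and 7.09 and 8.80 in WT and 6.47 and 6.71 in ΔRRE at CT22. The ΔRRE replicates lay close together with low values at CT10 and CT22, while the WT libraries spread more at CT6, CT14 and CT18. Its fitted 12-h peaks at CT4.25 and CT16.2 stood 2.45-fold above the troughs, with an amplitude of 0.65 ± 0.10 (SE) and an adjusted p of 0.00665.

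*Phlda1* (chr10:111506286-111508645), which encodes a pleckstrin-homology-like domain protein, peaked later. In FPKM, it measured 65.9 and 146 in WT and 79.7 and 77.2 in ΔRRE at CT6 and 129 and 151 in WT and 63.5 and 116 in ΔRRE at CT18. Lower values were found at CT2, with 64.8 and 22.5 in WT and 23.7 and 23.3 in ΔRRE, and at CT14, with 52.4 and 59.6 in WT and 85.4 and 46.2 in ΔRRE. The remaining libraries held 45.5 and 32.7 in WT and 36.4 and 37.3 in ΔRRE at CT10 and 31.6 and 74.0 in WT and 39.9 and 20.6 in ΔRRE at CT22. The CT6 and CT18 libraries were thus above all others but 3, 1 each at CT2, CT14 and CT22, which reached into their range. An amplitude of 0.87 ± 0.14 (SE), or 3.35-fold from trough to peak, was fitted at 12 h, with peaks at CT5.79 and CT17.8 (adjusted p = 0.00665). *Foxq1*, a forkhead transcription factor, had a like course in WT, with means (n = 2) of 11.1 FPKM at CT6 and 8.03 at CT18. In ΔRRE the mean was 8.92 FPKM at CT6, but 3.80 ± 1.93 (SD) at CT18, beside 3.86 at CT10 and 3.46 at CT14. A clear evening peak was thus not seen in ΔRRE. Over both genotypes *Foxq1* held 2.44 to 17.0 (median 6.04) FPKM in the CT6 and CT18 libraries. It held 1.88 to 4.70 (median 2.43) in the CT2 and CT14 libraries and 1.57 to 4.56 (median 2.78) in the CT10 and CT22 libraries. For *Foxq1* the 12-h fit gave peaks at CT6.01 and CT18.0 and an amplitude of 0.89 ± 0.16 (SE), which is 3.44-fold from trough to peak (adjusted p = 0.00932).

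*Dusp6* (chr10:99263231-99267489), a phosphatase that switches off ERK, peaked early in each cycle. Its FPKM were 11.3 and 17.9 in WT and 13.6 and 13.1 in ΔRRE at CT2 and 19.5 and 14.6 in WT and 11.4 and 16.5 in ΔRRE at CT14. At CT6 they were 7.23 and 4.92 in WT and 8.42 and 5.34 in ΔRRE, and at CT18 8.91 and 7.96 in WT and 8.26 and 11.5 in ΔRRE. In the CT10 and CT22 libraries they were 9.49 and 9.87 in WT and 5.19 and 5.52 in ΔRRE and 8.87 and 12.3 in WT and 11.8 and 12.2 in ΔRRE, respectively. All CT2 and CT14 libraries held at least 11.3 FPKM, a level that in the CT6 and CT18 libraries was reached in 1 alone. The amplitude of *Dusp6* at 12 h was 0.56 ± 0.09 (SE), a ratio of 2.16 between peak and trough, with peaks at CT1.51 and CT13.5 and an adjusted p of 0.00665.

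*Bcor*, a co-repressor that binds BCL6, and *Klhl25*, a substrate adaptor of a CUL3 ubiquitin ligase, were the members of the naming rule whose 8 highest-pair libraries all lay above all 8 of the lowest pair. *Bcor* held 2.69 to 3.50 (median 3.18) FPKM at CT2 and CT14, 1.56 to 3.16 (median 2.11) at CT6 and CT18, and 1.10 to 2.38 (median 1.97) at CT10 and CT22. This gave a 12-h amplitude of 0.45 ± 0.07 (SE) and a 1.85-fold ratio, peaking at CT2.61 and CT14.6 (adjusted p = 0.00665). *Klhl25* held 4.82 to 9.24 (median 6.06), 2.13 to 7.48 (median 4.64) and 3.24 to 4.65 (median 3.67) in the same order. The 12-h wave had an amplitude of 0.42 ± 0.07 (SE) on the log2 scale, a fitted peak-to-trough ratio of 1.79 and peaks at CT2.58 and CT14.6 (adjusted p = 0.00665). Such a gap was found in 19 of all genes tested (0.169%) and in 14 of the 343, all of them two-peaked, but the genes were chosen by differences between these same libraries, so nothing is read from it. Beside *Bcor* and *Klhl25*, *Uap1*, which makes UDP-N-acetylglucosamine, *Ostc*, a subunit of the oligosaccharyltransferase, and *Golgb1*, a Golgi matrix protein, were among the 14, with amplitudes of 0.42, 0.36 and 0.21. These 3 genes were chosen after their values were seen.

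Other two-peaked genes with an early peak were *Ski*, *Ccdc134* and *Cad*. *Ski*, a co-repressor of SMAD signalling, held 5.47 to 7.64 (median 6.87) FPKM at CT2 and CT14, 3.77 to 6.47 (median 5.63) at CT6 and CT18, and 2.40 to 5.75 (median 3.68) at CT10 and CT22. Its fitted 12-h peaks at CT3.23 and CT15.2 stood 1.84-fold above the troughs, with an amplitude of 0.44 ± 0.07 (SE) and an adjusted p of 0.00593. For *Ccdc134*, a coiled-coil protein of the secretory pathway, the corresponding values were 1.51 to 5.77 (median 3.27), 0.929 to 4.41 (median 1.71) and 1.0 to 2.87 (median 1.39). An amplitude of 0.62 ± 0.12 (SE), or 2.35-fold from trough to peak, was fitted at 12 h, with peaks at CT2.54 and CT14.5 (adjusted p = 0.0174). *Cad*, the enzyme that starts pyrimidine synthesis, held 2.68 to 9.89 (median 4.70), 2.59 to 11.1 (median 3.92) and 1.5 to 3.76 (median 2.57). For *Cad* the 12-h fit gave peaks at CT3.96 and CT16.0 and an amplitude of 0.58 ± 0.12 (SE), which is 2.24-fold from trough to peak (adjusted p = 0.0291). The *Cad* call was lost without ΔRRE CT10 replicate 1, ΔRRE CT10 replicate 2 or ΔRRE CT22 replicate 1, with adjusted p up to 0.0661. *Slc17a9*, a vesicular nucleotide transporter, had an amplitude of 0.61 with an adjusted p of 0.0467, and kept the call in 5 of the 24 fits that left out 1 library, with adjusted p up to 0.0982.

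*Clmn*, *Smad9* and *Rapgef4os3* ran in the opposite phase, with their peaks close to CT10 and CT22. *Clmn* (calmin, an actin-binding membrane protein; chr12:104763117-104865076) measured, in FPKM, 18.5 and 17.2 in WT and 21.1 and 20.9 in ΔRRE at CT10 and 11.7 and 11.8 in WT and 14.1 and 10.7 in ΔRRE at CT22. At CT2 it measured 8.33 and 9.09 in WT and 11.1 and 8.95 in ΔRRE, and at CT14 10.2 and 15.9 in WT and 14.2 and 9.73 in ΔRRE. Its levels were 9.81 and 12.5 in WT and 11.6 and 9.34 in ΔRRE at CT6 and 9.90 and 9.61 in WT and 9.37 and 9.47 in ΔRRE at CT18. The CT10 peak stood above every other library, and the CT22 peak was small. The amplitude of *Clmn* at 12 h was 0.37 ± 0.06 (SE), a ratio of 1.66 between peak and trough, with peaks at CT10.2 and CT22.2 and an adjusted p of 0.00665. *Smad9*, a SMAD of the BMP pathway, held 2.30 to 4.41 (median 2.77) FPKM at CT10 and CT22, 0.685 to 2.85 (median 1.33) at CT2 and CT14, and 0.952 to 2.73 (median 1.40) at CT6 and CT18. This gave a 12-h amplitude of 0.65 ± 0.15 (SE) and a 2.46-fold ratio, peaking at CT10.2 and CT22.2 (adjusted p = 0.0384). Its 24-h amplitude was 0.13, and the call was kept in 8 of the 24 fits without 1 library, with adjusted p up to 0.0881. *Rapgef4os3*, an RNA transcribed opposite to *Rapgef4*, held 1.49 to 5.57 (median 2.00) FPKM at CT10 and CT22, 0.501 to 2.28 (median 0.870) at CT2 and CT14, and 0.634 to 2.23 (median 1.10) at CT6 and CT18. The 12-h wave had an amplitude of 0.77 ± 0.16 (SE) on the log2 scale, a fitted peak-to-trough ratio of 2.91 and peaks at CT9.52 and CT21.5 (adjusted p = 0.0262). This call was lost without ΔRRE CT10 replicate 2 or ΔRRE CT22 replicate 1, with adjusted p up to 0.0557. *Rapgef4* was two-peaked too, and since the use of strand in the quantification is not given in the sources used here, the reads of this pair may not have been told apart.

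**Figure D1:**
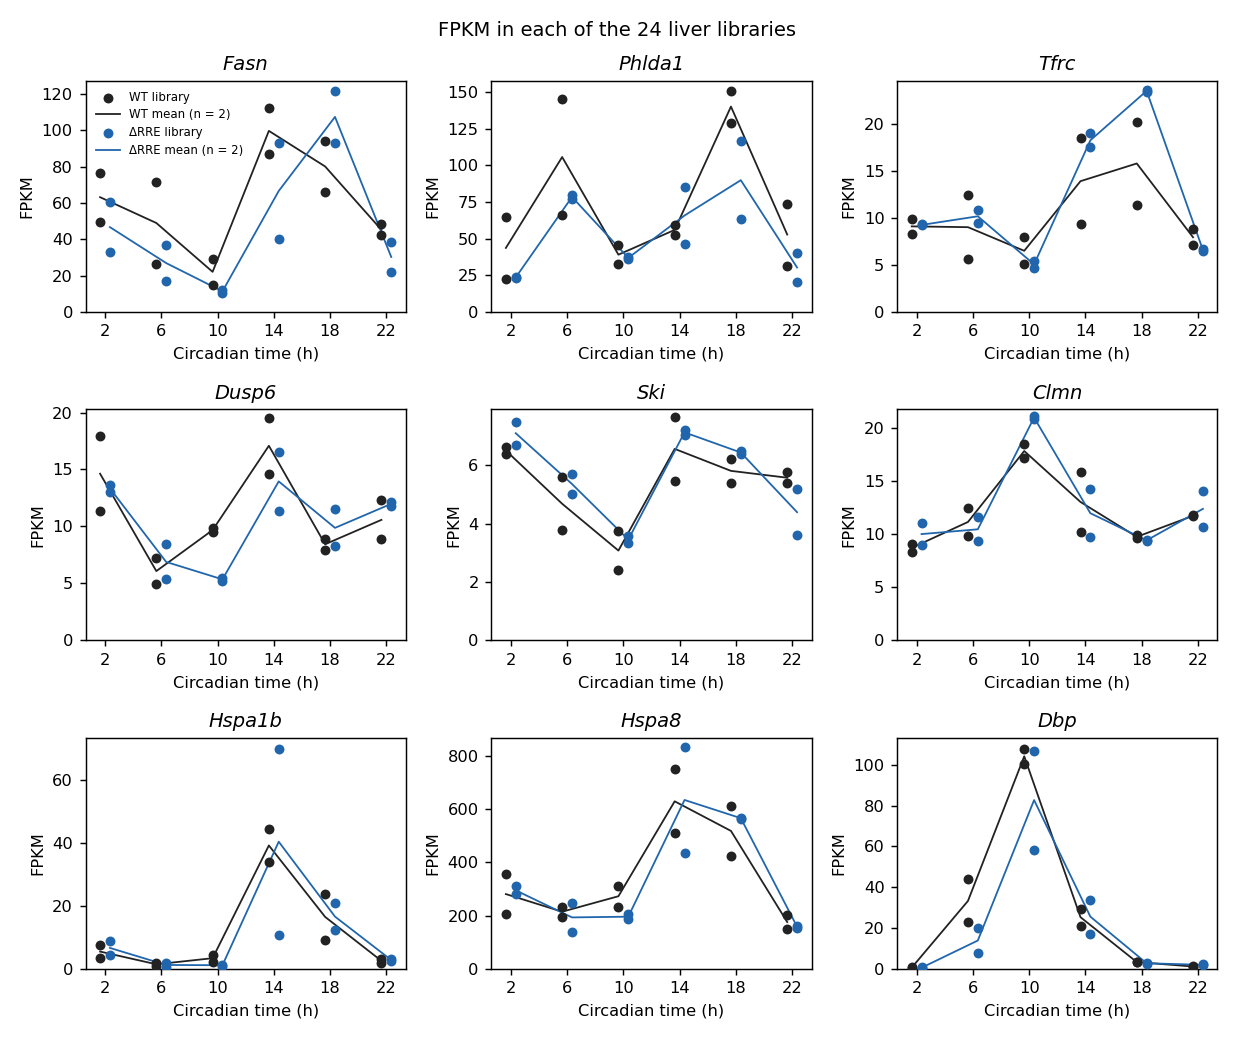
FPKM of 9 genes (vertical axes, linear from 0) against circadian time in hours (horizontal axes). Each point is 1 of the 24 liver libraries (black, WT; blue, ΔRRE) and each line joins the means of 2 libraries. *Phlda1* and *Dusp6* show a pair of peaks a day, *Clmn* a high peak at CT10 and a small one at CT22, and *Hspa1b*, *Hspa8* and *Dbp* mainly 1 peak.

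The smallest adjusted p of all, 0.00124, belonged to *Gm5524*, and the largest amplitude, 1.56 ± 0.34 (SE), to *Gm45044*, both annotated as lincRNAs in GENCODE M21 and both two-peaked. Symbols of this form were outside the naming rule, and these 2 were chosen after their values were seen. By annotation, 322 of the 343 genes were protein-coding and 10 were lincRNAs. The median of the mean expression was 9.34 FPKM for the 343 genes, 7.76 FPKM for the two-peaked genes and 6.74 FPKM for all genes tested.

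The first peak fell between CT0 and CT6, with the next between CT12 and CT18, in 222 of the 343 genes (64.7%) and in 113 of the 153 two-peaked genes (73.9%), against 58.6% of all genes tested. Between CT2 and CT4 there were 104 of the 343 genes and 52 of the two-peaked genes, and between CT6 and CT8 18 and 10. These splits depended on the scale of the libraries. All genes tested shared a median 12-h wave of 0.0217 on the log2 scale that peaked at CT2.29, and after the libraries were rescaled by the median of ratios the share between CT0 and CT6 was 52.9% of 350 genes (185 against 165) and 56.8% of 146 two-peaked genes (83 against 63). In the bin from CT2 to CT4 there were then 75 genes, as many as from CT8 to CT10, and 28 two-peaked genes, against 29 from CT4 to CT6. Rescaling changed the amplitude of no gene among the 343 by more than 0.0241, and 297 of the 350 genes were among the 343. Of the two-peaked genes 89 were highest at CT2 and CT14, 34 at CT6 and CT18, and 30 at CT10 and CT22. The lowest pair was CT10 and CT22 in 76 of them, CT6 and CT18 in 55, and CT2 and CT14 in 22. These counts of pairs used FPKM as deposited, so they carry the same dependence on scale. They were not made over all genes tested.

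**Figure D2:**
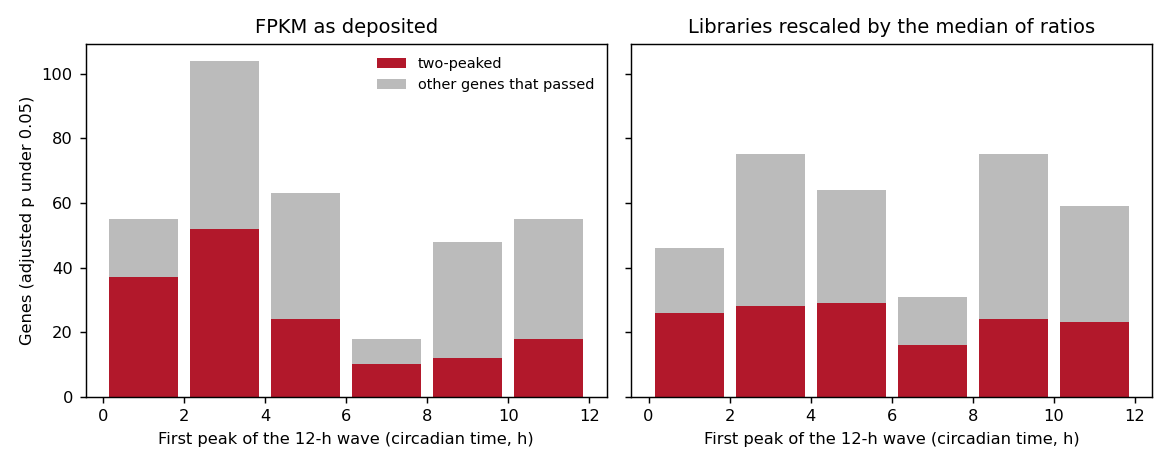
Number of genes with an adjusted 12-h p under 0.05 (vertical axis) by the time of the first 12-h peak in bins of 2 h (horizontal axis, circadian time), with the two-peaked genes in red and the others in grey. With FPKM as deposited (left) 222 of 343 genes peaked before CT6, and with rescaled libraries (right) 185 of 350.

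**Figure D3:**
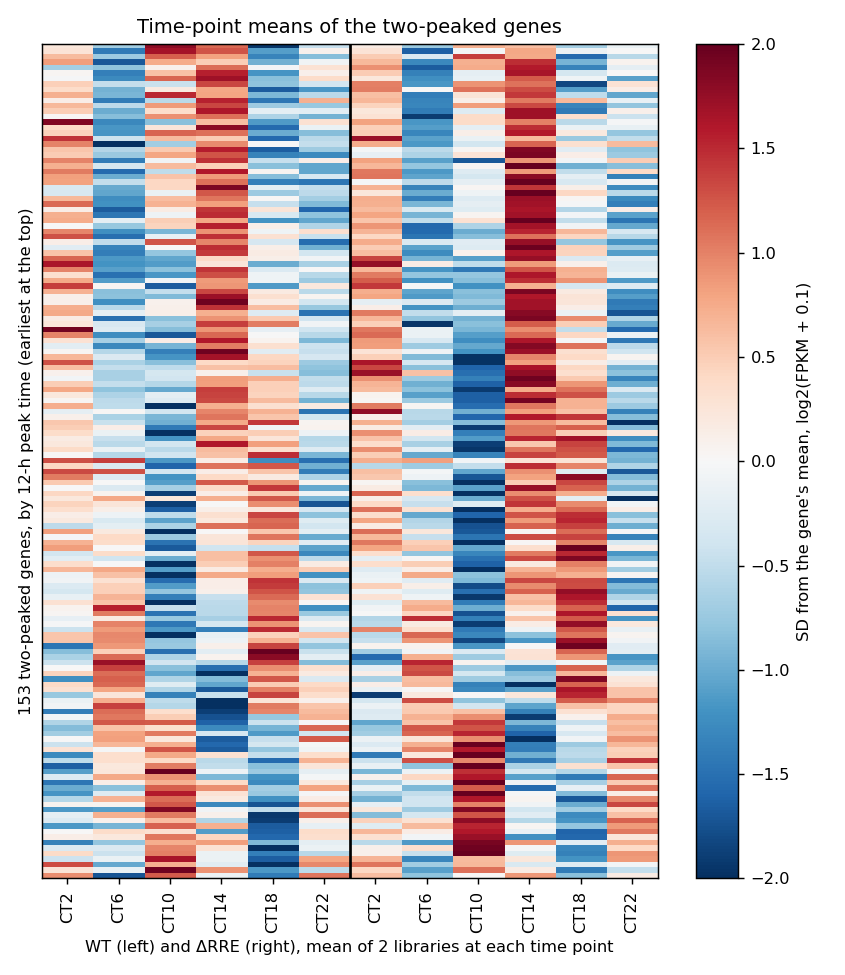
Time-point means (n = 2 libraries) of the 153 two-peaked genes on the log2(FPKM + 0.1) scale, in standard deviations from each gene's mean, with WT in the left columns and ΔRRE in the right columns. Rows are ordered by the time of the 12-h peak, so that most genes are high at CT2 and CT14 at the top and at CT10 and CT22 at the bottom.

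The heat shock list had the most 12-h calls. Beside cytosolic chaperones and their regulators it held the mitochondrial chaperonins *Hspd1* and *Hspe1* and the cold-inducible *Cirbp* and *Rbm3*. Of the 21 genes tested, 9 passed against 3.05% of all genes, each with its first peak between CT2.41 and CT4.56, and 15 had an unadjusted p under 0.05 (19.1% of all). None of the 9 was two-peaked, because the 24-h amplitude was the larger in each of them. *Hspa1b* (chr17:34956436-34959238), the inducible HSP70, measured, in FPKM, 44.3 and 33.9 in WT and 10.9 and 69.7 in ΔRRE at CT14 and 9.25 and 23.6 in WT and 12.2 and 20.9 in ΔRRE at CT18. It measured 3.41 and 7.51 in WT and 4.32 and 8.90 in ΔRRE at CT2 and 0.919 and 1.94 in WT and 1.80 and 0.626 in ΔRRE at CT6. At CT10 and CT22 the values were 2.24 and 4.48 in WT and 0.996 and 1.26 in ΔRRE and 3.07 and 1.96 in WT and 2.50 and 3.04 in ΔRRE, respectively. The CT14 and CT18 libraries were all above the rest, and a much smaller rise stood at CT2, where the lowest library, at 3.41 FPKM, lay within the range of CT10. Its fitted 12-h peaks at CT2.72 and CT14.7 stood 7.92-fold above the troughs, with an amplitude of 1.49 ± 0.20 (SE) and an adjusted p of 0.00473. The 24-h amplitude was 1.79 with a peak at CT16.7. *Hspa1a* had an amplitude of 1.33 ± 0.19 (SE), but the coding sequences of *Hspa1a* and *Hspa1b* are nearly identical and the division of reads between them is uncertain.

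Other heat shock genes that passed had smaller amplitudes. *Hsph1*, an HSP110 chaperone, held 8.99 to 61.4 (median 21.6) FPKM at CT2 and CT14, 3.41 to 48.2 (median 17.6) at CT6 and CT18, and 4.19 to 14.3 (median 10.3) at CT10 and CT22. An amplitude of 0.88 ± 0.14 (SE), or 3.36-fold from trough to peak, was fitted at 12 h, with peaks at CT3.12 and CT15.1 (adjusted p = 0.00665). *Hspa8*, the constitutive HSC70, averaged 633 ± 190 FPKM (SD, n = 4) at CT14, 543 ± 81.8 at CT18 and 288 ± 63.6 at CT2. Its means at CT6, CT10 and CT22 were 204, 235 and 167 FPKM. For *Hspa8* the 12-h fit gave peaks at CT3.40 and CT15.4 and an amplitude of 0.64 ± 0.10 (SE), which is 2.44-fold from trough to peak (adjusted p = 0.00604). The other 5 genes that passed, which the naming rule left out, were *Stip1*, *Bag3*, *Dnajb1*, *Hsp90aa1* and *Chordc1*, with amplitudes between 0.43 and 0.62. *Cirbp*, a cold-inducible RNA-binding protein, had an amplitude of 0.32 with its first peak at CT10.2 and did not pass (adjusted p = 0.0902).

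A heat shock element, searched on both strands as GAA, TTC and GAA with any 2 bases between each, in promoters from 250 bases before to 50 after the RefSeq start (GRCm38.p6), was held by 4 of 16 heat shock genes with a promoter in the table and by 0.584% of the 8226 tested genes with one. Both *Chordc1*, with 3 overlapping matches, and *Hsph1* passed for 12 h, and 1 match of each is printed with its letters in capitals:
*Chordc1* (chr9:18292255-18292283, plus strand): tgcaaccgGAACGTTCGGGAAaattcctg
*Hsph1* (chr5:149636280-149636308, minus strand): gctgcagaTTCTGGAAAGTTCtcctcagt
In *Hsph1* the match was read on the opposite strand. The remaining matches of the list belonged to *Hspd1* and *Hspe1*, the mitochondrial chaperonins, whose 12-h waves did not pass.

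Of 30 genes of ER folding and the unfolded protein response, 3 passed against 3.05% of all genes, all 3 two-peaked, and 18 had an unadjusted p under 0.05 (19.1% of all), each with a first peak between CT0 and CT6 (58.6% of all). Here and in the lists below, the 58.6% covers all genes tested. The share among genes with an unadjusted p under 0.05 was not counted, and such shares depend on the scale of the libraries. *Dnajb9*, an ER co-chaperone of the HSP40 family, held 23.2 to 69.4 (median 51.6) FPKM at CT2 and CT14, 10.1 to 36.1 (median 19.2) at CT6 and CT18, and 12.1 to 41.3 (median 22.6) at CT10 and CT22. Its libraries at CT2 and CT14 were mostly the highest, with overlap. The amplitude of *Dnajb9* at 12 h was 0.74 ± 0.15 (SE), a ratio of 2.79 between peak and trough, with peaks at CT1.75 and CT13.7 and an adjusted p of 0.0285. The call was lost without WT CT2 replicate 2, WT CT14 replicate 1, ΔRRE CT2 replicate 2 or ΔRRE CT14 replicate 2, with adjusted p up to 0.0635. *Manf*, a secreted neurotrophic factor retained in the ER, averaged 98.2 ± 51.7 FPKM (SD, n = 4) at CT14 and 131 ± 53.8 at CT18, against 71.4 ± 23.1 at CT2 and 41.1 ± 7.5 at CT22. This gave a 12-h amplitude of 0.67 ± 0.15 (SE) and a 2.52-fold ratio, peaking at CT3.89 and CT15.9 (adjusted p = 0.0366). This call was kept in 14 of the 24 fits without 1 library, with adjusted p up to 0.0877. *Wfs1*, an ER membrane protein, had an amplitude of 0.52 ± 0.12 (SE) and an adjusted p of 0.0433, and kept the call in 8 of these fits, with adjusted p up to 0.0952. The major chaperone *Hspa5* (BiP) had an amplitude of 0.58 with a first peak at CT3.44 and an adjusted p of 0.0947, and *Creld2*, an ER stress-induced protein, had 0.88 at CT3.76 and 0.0836. *Hspa5* and *Creld2* were chosen after their values were seen.

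Of 30 genes of the translocon, the signal peptidase and the COPI and COPII coats, 2 passed (6.67%, against 3.05% of all genes) and 9 had an unadjusted p under 0.05 (19.1% of all), all 9 with a first peak before CT6 (58.6% of all). The median amplitude of the list was 0.106, compared with 0.114 over all genes tested, so the list lay near the background. *Srp68*, a subunit of the signal recognition particle, held 18.2 to 27.2 (median 22.9) FPKM at CT2 and CT14, 15.2 to 22.3 (median 17.8) at CT6 and CT18, and 13 to 21.7 (median 17.3) at CT10 and CT22. The 12-h wave had an amplitude of 0.25 ± 0.06 (SE) on the log2 scale, a fitted peak-to-trough ratio of 1.42 and peaks at CT2.55 and CT14.6 (adjusted p = 0.0356). For *Copg1*, a COPI coat subunit, the amplitude was 0.26 and the adjusted p 0.0440. These calls were kept in 11 and 6 of the 24 fits without 1 library, with adjusted p up to 0.0827 and 0.104.

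The unfolded protein response element TGACGTGG, searched on both strands, was held by 6 of 124 two-peaked genes with a promoter (4.84%) and by 1.01% of all tested genes with one, but by 0 of 26 genes of the ER folding list. Only these letters were searched, so any other element of this response would have been missed. The windows of *Lrrc59*, an ER membrane protein that binds ribosomes, and *Rnf39*, a RING finger protein, are printed as examples read on the gene's own strand, with the motif in capitals:
*Lrrc59* (chr11:94629754-94629777): gcggaaggTGACGTGGacacggaa
*Rnf39* (chr17:36942888-36942911): ataaaaccTGACGTGGtgaggaga
The other 4 were *Bysl*, *Cdk7*, *Morf4l2* and *Scfd1*. These 6 genes were found by the motif after the two-peaked genes were known, and the match is a description of the letters in this window.

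**Figure D4:**
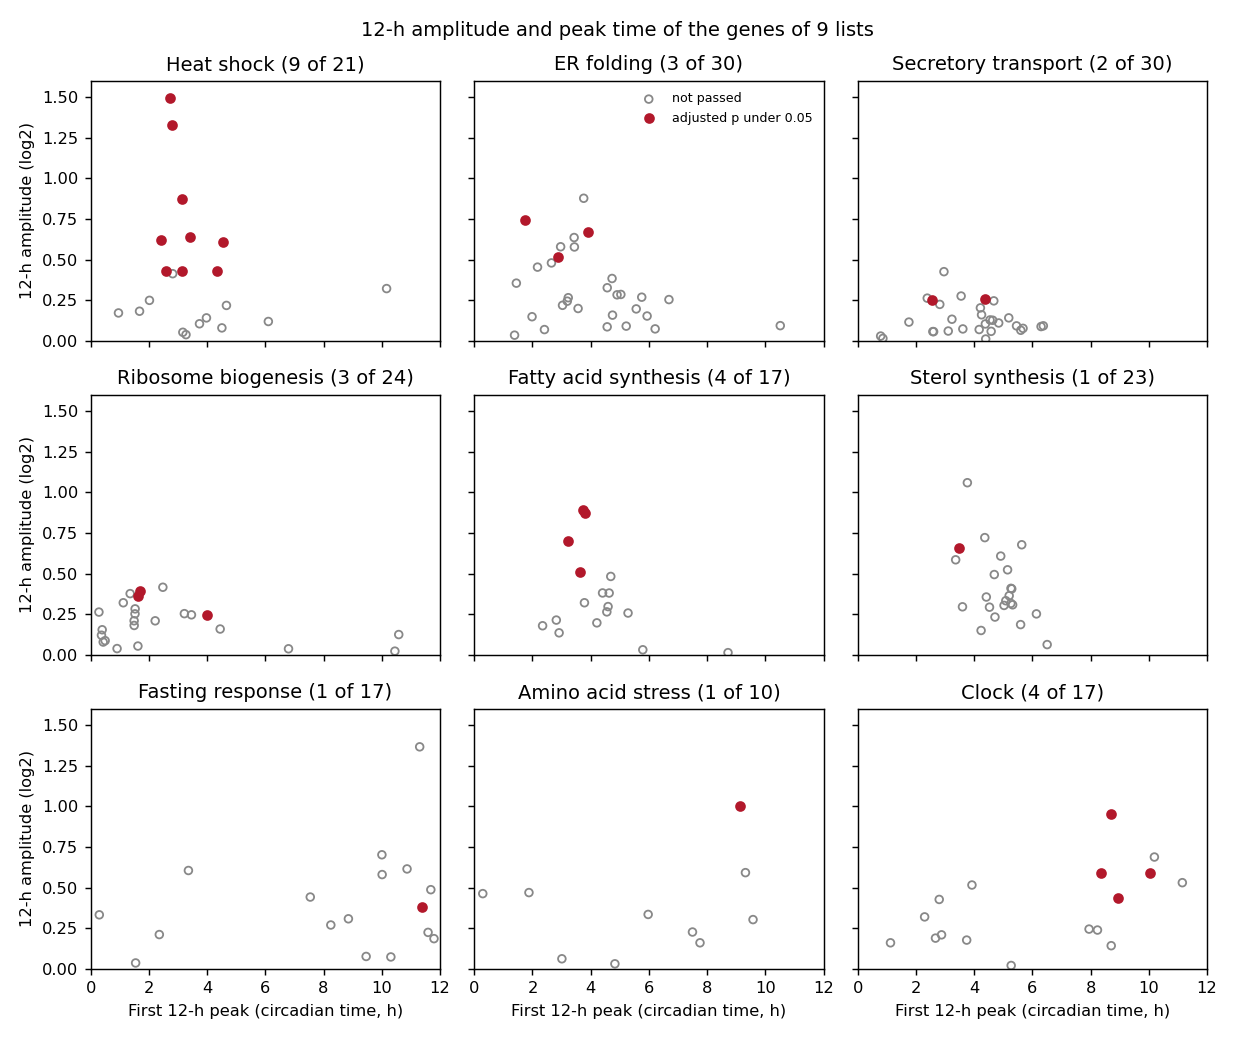
12-h amplitude (vertical axis, log2) against the time of the first 12-h peak (horizontal axis, circadian time in hours) for the tested genes of 9 lists. Filled red points passed an adjusted p under 0.05 and open grey points did not; the points of heat shock, ER folding, fatty acid and sterol synthesis lie mostly between CT2 and CT6, and the clock genes that passed between CT8 and CT10.1.

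Of 17 genes of fatty acid synthesis and the steps that feed it, 4 passed against 3.05% of all genes, each with a first peak before CT6. Beside *Fasn* these included *Thrsp*, which promotes lipogenesis, and *Elovl6*, which elongates palmitate. *Thrsp* averaged 786 ± 266 FPKM (SD, n = 4) at CT14 and 805 ± 128 at CT18, and 159 ± 68.4 at CT2. At CT6, CT10 and CT22 its means were 127, 100.2 and 196 FPKM, so that the highest means were both in the evening. Its fitted 12-h peaks at CT3.79 and CT15.8 stood 3.36-fold above the troughs, with an amplitude of 0.88 ± 0.17 (SE) and an adjusted p of 0.0204. *Elovl6* had an amplitude of 0.51 and an adjusted p of 0.0471, and kept the call in 7 of the 24 fits without 1 library, with adjusted p up to 0.106. *Fasn* alone of the 4 was two-peaked, while the other 3 had the larger amplitude at 24 h.

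Of 23 genes of sterol synthesis and uptake, 1 passed (4.35%, against 3.05% of all genes) and 10 had an unadjusted p under 0.05 (19.1% of all), all 10 with a first peak before CT6 (58.6% of all). The share that passed was near that of all genes. *Insig1*, which holds SREBPs back in the ER, held 139.7 to 264 (median 213) FPKM at CT2 and CT14, 72.3 to 312 (median 172) at CT6 and CT18, and 51.8 to 168 (median 87.4) at CT10 and CT22. An amplitude of 0.66 ± 0.16 (SE), or 2.50-fold from trough to peak, was fitted at 12 h, with peaks at CT3.47 and CT15.5 (adjusted p = 0.0498). It was two-peaked, with a call close to the threshold that was kept in 5 of the 24 fits without 1 library, with adjusted p up to 0.117.

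Among 24 genes of RNA polymerase I and ribosome assembly, 3 passed (12.5%, against 3.05% of all genes) and 13 had an unadjusted p under 0.05 (19.1% of all), all 13 with a first peak before CT6 (58.6% of all). *Polr1a*, the largest subunit of RNA polymerase I, averaged 5.09 ± 1.12 FPKM (SD, n = 4) at CT14 and between 2.11 and 2.83 FPKM at the other times. For *Polr1a* the 12-h fit gave peaks at CT1.68 and CT13.7 and an amplitude of 0.39 ± 0.07 (SE), which is 1.72-fold from trough to peak (adjusted p = 0.0123). It was two-peaked. *Nop2*, a ribosomal RNA methyltransferase, had an amplitude of 0.36 with a first peak at CT1.63 (adjusted p = 0.0283), and its call was lost without WT CT2 replicate 2 or ΔRRE CT2 replicate 2, with adjusted p up to 0.0631. *Nop16*, a nucleolar assembly factor, had 0.24 at CT3.99 (adjusted p = 0.00895).

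Of 17 genes of fasting 1 passed (5.88%, against 3.05% of all genes). Of the 7 with an unadjusted p under 0.05 (19.1% of all), 1 had its first peak before CT6 (58.6% of all) and the other 6 between CT6 and CT12. *Cpt1a*, which imports fatty acids into mitochondria for oxidation, held 37.6 to 131 (median 76.6) FPKM at CT10 and CT22, 43.0 to 116 (median 66.8) at CT2 and CT14, and 38.7 to 63.1 (median 45.9) at CT6 and CT18. The amplitude of *Cpt1a* at 12 h was 0.38 ± 0.06 (SE), a ratio of 1.69 between peak and trough, with peaks at CT11.4 and CT23.4 and an adjusted p of 0.00665. The 24-h amplitude of 0.58 was larger. Of 10 genes of amino acid stress 1 passed against 3.05% of all genes, *Chac1*, a glutathione-degrading enzyme, with 0.447 to 5.09 (median 1.59) FPKM at CT10 and CT22, 0.115 to 0.866 (median 0.315) at CT2 and CT14, and 0.0999 to 2.01 (median 0.855) at CT6 and CT18. This gave a 12-h amplitude of 1.0 ± 0.22 (SE) and a 4.02-fold ratio, peaking at CT9.12 and CT21.1 (adjusted p = 0.0316). The call was lost without any 1 of the 6 ΔRRE libraries of CT2, CT10 and CT22, with adjusted p up to 0.0734.

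In the clock list 4 of 17 genes passed against 3.05% of all genes, *Dbp*, *Per3*, *Per1* and *Tef*, all with a first peak between CT8.36 and CT10.1 and none two-peaked. *Dbp*, a transcription factor of D-boxes, averaged 93.5 ± 23.5 FPKM (SD, n = 4) at CT10, 23.6 ± 15.0 at CT6 and 25.4 ± 7.65 at CT14. At CT2 the mean was 0.535 FPKM, and it was 3.0 at CT18 and 1.53 at CT22. The 12-h wave had an amplitude of 0.96 ± 0.19 (SE) on the log2 scale, a fitted peak-to-trough ratio of 3.76 and peaks at CT8.71 and CT20.7 (adjusted p = 0.0229). The 24-h amplitude was 3.39, and *Dbp* had 1 maximum a day in the means of all libraries. *Tef*, of the same family, had an amplitude of 0.43 at 12 h (adjusted p = 0.00783) and 1.41 at 24 h. *Per3* and *Per1*, which repress CLOCK and BMAL1, had 0.59 and 0.59 at 12 h, with adjusted p of 0.0229 and 0.0295, and 2.08 and 1.84 at 24 h. The *Per1* call was lost without WT CT22 replicate 2, ΔRRE CT10 replicate 1, ΔRRE CT10 replicate 2 or ΔRRE CT22 replicate 1, with adjusted p up to 0.0725.

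The other clock genes did not pass in the fit of all 24 libraries. *Nfil3*, the repressor of D-boxes, had an adjusted p of 0.0570 with an amplitude of 0.43, and *Ciart*, a repressor of CLOCK and BMAL1, 0.0849 with 0.69. *Ciart* passed without WT CT6 replicate 1 (adjusted p = 0.00109), without CT6 and with 1 FPKM added, as *Npas2* did with 1 FPKM added (adjusted p = 0.0400). *Nfil3* passed without WT CT14 replicate 2 (adjusted p = 0.0333), with a mean of 5 FPKM required and with the replicate number as a term. *Per2* and *Nr1d1* (REV-ERBα), with 24-h amplitudes of 1.90 and 2.93, had 12-h amplitudes of 0.21 and 0.16, with adjusted p of 0.607 and 0.880. Adjusted p were 0.161 for *Cry1*, 0.272 for *Cry2*, 0.278 for *Npas2*, 0.402 for *Hlf*, 0.506 for *Bhlhe40*, 0.523 for *Nr1d2*, 0.554 for *Clock* and 0.969 for *Rora*. *Bhlhe41* was not tested, as its mean was under 1 FPKM.

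The E-box CACGTG was held by 4 of 15 clock genes with a promoter, against 12.2% of all tested genes with one, 11.9% of the genes that passed for 12 h and 10.5% of the two-peaked genes. The D-box TTATGTAA was held by 0.729% of all and by *Per3* with 2 matches. Since the E-box was about as frequent among the 12-h genes as among all genes, windows are shown for the clock genes that passed and for the two-peaked genes *Dnajb9* and *Insig1* only, with the motif in capitals, on the gene's own strand:
*Per1*, E-box (chr11:69098775-69098796): cccaagtcCACGTGcagggatg
*Tef*, E-box (chr15:81802538-81802559): tgtggctcCACGTGctgcagct
*Per3*, D-box (chr4:151044808-151044831): gcccgcggTTATGTAAcccccgcc
*Dnajb9*, E-box (chr12:44210162-44210183): cagttttcCACGTGcgcgtagg
*Insig1*, E-box (chr5:28071303-28071324): ggtgaggtCACGTGgctccggt
A further E-box of *Tef* and the other D-box of *Per3* are not printed.

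*Clec2h*, a C-type lectin outside the lists, had the larger amplitude at 24 h too. It averaged 12.7 ± 4.86 FPKM (SD, n = 4) at CT6 and 16.7 ± 4.99 at CT10, and between 2.48 and 3.89 FPKM at the other times. Its fitted 12-h peaks at CT8.35 and CT20.4 stood 3.39-fold above the troughs, with an amplitude of 0.88 ± 0.16 (SE) and an adjusted p of 0.0103. In 3 lists no gene passed in limma's test. Of 11 immediate-early genes tested, 5 had an unadjusted p under 0.05, against 19.1% of all genes, with *Gadd45g*, a DNA damage-inducible gene, at the smallest (adjusted p = 0.0799). *Gadd45g* passed without WT CT2 replicate 1 (adjusted p = 0.0459) or ΔRRE CT14 replicate 1. It ranged from 5.39 to 43.0 FPKM at CT6 and CT18 and from 0.704 to 10.2 FPKM at CT10 and CT22, but from 1.85 to 46.7 FPKM at CT2 and CT14. Of 12 glucocorticoid-induced genes 3 had an unadjusted p under 0.05, near the share of all genes, with *Fkbp5*, a co-chaperone of the glucocorticoid receptor, at the smallest (adjusted p = 0.109), and of 20 acute-phase genes 0, with the fibrinogen chain *Fga* at the smallest (adjusted p = 0.449).

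Genes that mark the cell types of the liver and of neighbouring tissue were tested as well. In the 8 lists 0 of them passed, against 3.05% of all genes tested. At an unadjusted p under 0.05 there were 3, against 19.1% of all genes. These were 1 each of 8 hepatocyte, 6 endothelial and 3 cholangiocyte markers tested. There were 0 of 7 Kupffer, 5 stellate, 5 erythroid, 1 lymphoid and 1 pancreas markers tested. For so few markers, 0 that passed is near the background. The summed level of the 8 hepatocyte markers had medians of 46836, 45167 and 45633 FPKM in the CT2 and CT14, CT6 and CT18, and CT10 and CT22 libraries. For the 7 Kupffer cell markers it ranged from 21.2 to 78.3, from 30.5 to 99.9 and from 14.1 to 59.0 FPKM in the same order. All 7 had their fitted first peak before CT6, as had 58.6% of all genes tested. The 6 endothelial markers ranged from 23.1 to 45.1, 22.8 to 35.4 and 20.7 to 32.0 FPKM, also with first peaks before CT6. So did the 5 markers of stellate cells, from 33.0 to 77.4, 36.9 to 57.6 and 31.0 to 68.9 FPKM. All 5 erythroid markers had their first peak after CT6, and their sum ranged from 465.7 to 4451, 519 to 2062 and 708 to 4322 FPKM in the same order. In it ΔRRE CT14 replicate 1 (4451 FPKM) and ΔRRE CT10 replicate 1 (4322 FPKM) stood apart from the other libraries, which held at most 2062 FPKM. Without ΔRRE CT14 replicate 1, 297 genes passed for 12 h, and without ΔRRE CT10 replicate 1, 192. Of the 8 hepatocyte markers 6 and of the 3 cholangiocyte markers tested 3 peaked before CT6. Of the 10 markers of the exocrine pancreas 9 were under a mean of 1 FPKM, and of the lymphoid markers 5. The part of these cells in the 12-h waves was not tested, and in bulk tissue fewer cells of a type and less RNA per cell cannot be told apart.

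The 12-h wave was also fitted in the 12 libraries of each genotype alone. In WT, 0 genes passed in limma's test after adjustment and 749 (6.66%) had an unadjusted p under 0.05. In ΔRRE, 1 gene passed (0.00889%), *Tfrc*, with an adjusted p of 0.00036, and 1512 (13.4%) had an unadjusted p under 0.05. Without 1 library the ΔRRE count ranged from 1 to 28 (without CT14 replicate 1). The difference of the 12-h terms between the genotypes passed for 0 genes, with a smallest adjusted p of 0.847 and 389 (3.46%) at an unadjusted p under 0.05. An adjusted p above the threshold does not show that the rhythms were equal.

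The genes with an unadjusted 12-h p under 0.05 in one genotype overlapped with those of the other. Of the 749 such genes in WT, 237 were among the 1512 in ΔRRE, which is 31.6% of the WT list against a background of 13.4%, and 15.7% of the ΔRRE list against a background of 6.66%. The peaks of both genotypes lay within 2 h of each other in 208 of the 237 genes (87.8%) and in 515 of the 749 (68.8%), compared with 50.5% of all genes tested. Both lists came from different libraries, sampled at the same times. The fit of all libraries favours genes with the same phase in both genotypes, so that all 343 genes met this limit of 2 h is a description only.

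The 12-h amplitude was larger in ΔRRE than in WT for 254 of the 343 genes and for 101 of the 153 two-peaked genes. This was not counted over all genes tested, so neither number has a background share. The medians for the 343 genes were 0.294 in WT and 0.367 in ΔRRE. Over all genes tested they were 0.129 and 0.146, a shift in the same direction. The shift of the 343 genes was not tested over the samples, and single genes show its limits. For *Tfrc* the amplitudes were 0.43 in WT and 0.87 in ΔRRE, and for *Fasn* 0.80 and 1.01. *Phlda1* went the other way, with 0.93 and 0.82, as did *Dusp6*, with 0.65 and 0.49. For *Chac1* they were 0.38 and 1.65, and for *Cpt1a* 0.22 and 0.54. The differences of these 6 genes had an adjusted p of 0.99996 in limma's test. Of the 343 genes, 17 had an unadjusted p under 0.05 for the difference, and 5 of the two-peaked genes. *Bmal1* itself had a 12-h amplitude of 0.97 in WT and 0.11 in ΔRRE, beside its 24-h wave, with an adjusted p of 0.847 for the difference. Its lowest WT value, 0.0919 FPKM at CT10, was below the 0.1 FPKM added before the logarithm. In the fit of both genotypes without 1 library, its 12-h amplitude ranged from 0.28 (without WT CT10 replicate 2) to 0.70.

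**Figure D5:**
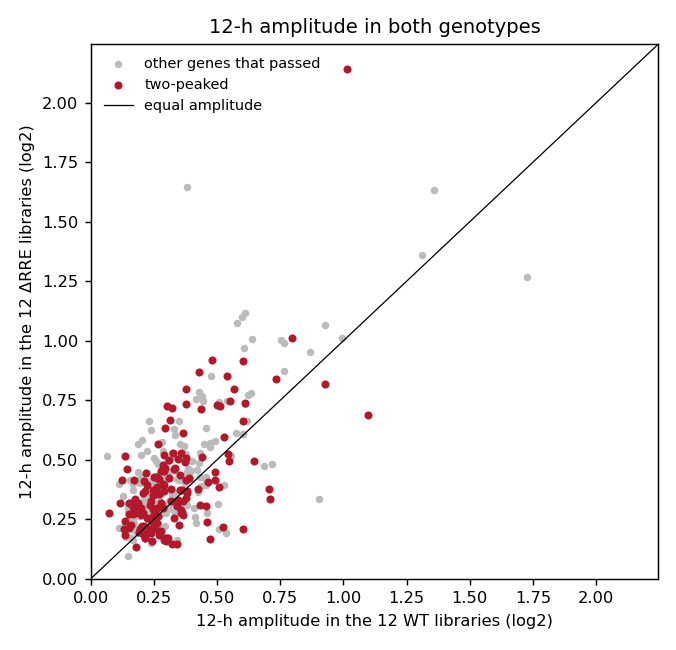
12-h amplitude (log2) in the 12 ΔRRE libraries (vertical axis) against that in the 12 WT libraries (horizontal axis) for the 343 genes with an adjusted 12-h p under 0.05 in the fit of all 24 libraries. Each point is a gene (red, two-peaked; grey, others), the line marks equal amplitudes, and 254 points lie above it.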

How the data were processed

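Poly(A)-tailed RNA of mouse liver was sequenced by the authors as directional libraries in pairs of reads. They deposited 1 table of FPKM per library, without pooling replicates. Their processing notes name Trimmomatic 0.39, HISAT2 2.1.0 and StringTie 1.3.5 and the genome mm10, but give no roles. FPKM hold no read counts, so depth was unknown and count tests were not run.

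Groups came from the labels. From 24 libraries, log2(FPKM + 0.1) was fitted, for genes that averaged 1 FPKM or more, with limma 3.58.1 in R 4.3.3 (intensity-dependent prior), with terms for genotype, a 24-h and a 12-h cosine and sine. The moderated F-test of the 12-h terms was adjusted by Benjamini-Hochberg over all 11244 genes (threshold 0.05). An amplitude's SE is that of a wave term. The replicates are separate samples by their labels, and p-values measure the spread between these samples. The genes, the 12 pathway and 8 marker lists and the tests were chosen with earlier results of these data known.

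Named genes were the 12 two-peaked genes with the largest amplitude, the 8 with the smallest p, the 5 genes with a larger 24-h amplitude and the largest 12-h amplitude, up to 4 genes that passed in each list (or that with the smallest p), and the clock list. A part for genes with a genotype difference named none. 1 gene that the rule names is not reported here. Gene positions are from GENCODE M21 (mm10) and promoters from RefSeq GRCm38.p6, matched by symbol for 8226 of 11244 genes, 268 of the 343 that passed. Figures were drawn with matplotlib 3.10.9, and the steps were tested on simulated data.

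The alternatives were 1 or 0.01 FPKM before the logarithm, no filter or one at 5 FPKM, rescaling by the median of ratios, no trend, thresholds of 0.01 and 0.1, the replicate number as a term, an added 8-h term, 24-h terms per genotype, and each library or time point left out.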

Additional observations from a re-analysis of the deposited data

Results flagged for a closer look

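In 6 of 66 groups of 8 libraries tested for a part of the genes of the naming rule, 1 library stood farther from the others than Dixon's limit of 0.526 of the range. For 8 values from a single normal distribution this limit flags about 1 in 20 groups. These groups mix time points and genotypes on the FPKM scale, so that rate need not hold here. Among the CT10 and CT22 libraries, *Phlda1* measured 74.0 FPKM in WT CT22 replicate 2, with the nearest at 45.5. In these libraries *Rapgef4os3* measured 5.57 FPKM in ΔRRE CT10 replicate 2, with the nearest at 3.30, and *Ccdc134* measured 2.87 FPKM in WT CT10 replicate 2, with the nearest at 1.72. Among the CT2 and CT14 libraries, *Rapgef4os3* measured 2.28 FPKM in ΔRRE CT2 replicate 1, with the nearest at 1.22, and *Manf* measured 175 FPKM in ΔRRE CT14 replicate 2, with the nearest at 103.6. Among the CT6 and CT18 libraries, *Smad9* measured 2.73 FPKM in ΔRRE CT18 replicate 2, with the nearest at 1.7. All 6 were the highest of their 8 libraries.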

How the results depend on the processing

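The count of 343 genes with a 12-h wave was 122 with no filter on low values, 58 at an adjusted p under 0.01 and 718 under 0.1, and the count of 153 two-peaked genes was 48, 18 and 320. It stayed within 1.5 times under the other settings, at 279 to 351 genes (112 to 154 two-peaked) with another constant, a higher filter, rescaled libraries, no trend, an 8-h term or 24-h terms per genotype. Leaving out CT2, CT6, CT10, CT14, CT18 or CT22 gave 46, 81, 26, 90, 112 and 3 genes for 12 h and 2197, 2233, 2345, 2420, 2185 and 2115 for 24 h, where 5 time points and 20 libraries remain, and no two-peaked count can be had. The 24-h count of 3769 was 2228 at an adjusted p under 0.01. With 24-h terms per genotype, the 24-h test and the 24-h amplitude were those of WT alone. That fit gave 1771 genes for 24 h and the 112 two-peaked genes, so neither number is a like count. Without 1 library the counts ranged from 155 to 455 (12 h), 3459 to 3713 (24 h), 68 to 220 (two-peaked), 0 to 1 (12 h in WT), 1 to 28 (12 h in ΔRRE) and 0 to 0 (difference between genotypes). The two-peaked count was 76 without WT CT2 replicate 2, 89 without WT CT14 replicate 1, 80 without ΔRRE CT2 replicate 2, 83 without ΔRRE CT10 replicate 1, 68 without ΔRRE CT22 replicate 1 and 97 without ΔRRE CT22 replicate 2. The 1 gene in ΔRRE alone became 2 with 1 FPKM added or rescaled libraries. The causes were not tested, beyond the fewer libraries or genes in each fit. For the named genes, 1785 amplitudes under the alternatives kept their side of the threshold, 360 no longer passed and 12 newly passed.

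Replicate numbers were shared by all groups. The deviations of same-numbered libraries correlated between -0.138 and 0.305 (median 0.067), above 0.1 in 20 of 66 pairs of groups. Whether same-numbered libraries shared more than a number was not tested. With the number as a replicate block, 474 genes passed for 12 h, 3907 for 24 h and 34 in ΔRRE alone, and 200 were two-peaked.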
